A study of Mus musculus with 8 samples.

Results

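Of the 6072 genes with 2 or more detected probes on the array, 33 had a probe that was higher and another probe that was lower in BTBR than in B6 hippocampus. These 33 genes were chosen by the measured strain difference of their probes. In the log2 matrix deposited for the series, the mean of 4 BTBR arrays minus the mean of 4 B6 arrays had to be 0.4 or more for one probe and -0.4 or less for another probe of the same gene name, with both probes well above background on all arrays of at least one strain. A difference of 0.4 on the log2 scale is a 1.32-fold change. The rule found 0.543% of the genes it could be applied to. The count moved with the processing and the threshold, to 94 genes with Agilent's processed signal and 65 at a threshold of 0.3, both of which held all 33, and to 9 at 0.6 and 0 at 1. The array carried 27373 gene names, and 16658 of them had at least 1 probe that passed the detection criterion. The opposite directions of the members are what selected them, so their strain differences are given here as a description, with no test.

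Whole hippocampi were taken from male mice aged 5 months, 4 of the inbred strain BTBR T+ Itpr3tf/J, which is used as a mouse model of autism, and 4 wild type C57BL/6J mice as controls, called B6 here. The labels give C57BL/6J as the strain background of the BTBR samples too, while the genotype, title and source of these samples say BTBR, and they were grouped by the title. BTBR and B6 are separate inbred strains, and every gene that varies between them can differ along with the alleles that name the model. Each mouse was hybridized to one single-color Agilent array, replicates 1 and 2 of both strains on slide 1 and replicates 3 and 4 of both strains on slide 2. On the 8 arrays 57.4% to 72.3% of the probes were well above background, with the lowest share on B6 replicate 1, and no spot was saturated. Correlations of the deposited values were 0.984 to 0.997 between arrays of the same strain and 0.981 to 0.993 between strains.

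All 20 markers of hippocampal neurons and all 17 glial markers on the array were well above background on all 8 arrays. BTBR replicates 1 and 2 stood apart in the hippocampal neuron markers, with mean log2 levels of 13.28 and 13.23, against 14.26 and 14.23 on BTBR replicates 3 and 4 and 14.00 to 14.44 in B6. Lct, a marker of the dentate gyrus, read 10.66 and 8.89 on these BTBR replicates and 12.00 to 14.22 in B6. Spink8, a marker of CA1, read 9.50 and 10.79 against 13.13 to 14.00. Not every marker fell. Wfs1, also of CA1, read 14.48 and 14.94 on these replicates against 14.20 to 14.52 in B6. BTBR replicate 2 had the highest level of 3 of the 20 markers, Gad1, Gad2 and Snap25. Gad2 read 14.95 there against 13.38 to 13.98 in B6. The median strain difference over the tested probes of this list was -0.27, and limma called 2 of its genes down and 0 up at an adjusted p under 0.05, with 5.41% of its probes called. The mean log2 level of the glial markers was 13.5 to 13.6 in B6 and 13.4 to 13.7 in BTBR, but single genes went both ways. Gfap of astrocytes was down in all 3 probes, by up to -1.30, the microglial C1qb was down by -1.01 and the microglial Cx3cr1 was up by 1.41 in 1 of 2 probes (limma, adjusted p = 0.0014, 0.00060 and 1.1e-05), and 15.6% of the glial probes were called against 7.63% of all probes. The 25 markers of tissues near the hippocampus (choroid plexus, thalamus, striatum, pituitary, meninges, blood and vessels) had mean log2 levels of 10.73 to 11.41 in B6 and 11.51 to 11.97 in BTBR, which did not overlap. The median strain difference over their tested probes was 0.63, and limma called 1 gene, Vwf of vessel walls, which was up in both probes by 0.88 and 0.97 (adjusted p = 0.0037 for the first), with 5.71% of the probes called. Of them, 21 were well above background on all 8 arrays and none was below it on all arrays. BTBR replicate 1 had the highest level of 7 of these 25 markers, the thalamic genes Prkcd and Tcf7l2 among them. BTBR replicate 2 had the highest level of another 7. Among these the striatal gene Drd2 read 12.69 against 8.29 to 10.64 in B6, and the striatal Adora2a 11.41 against 10.75 to 11.40. Other arrays stood out too. The pituitary gene Gh read 10.85 and 13.03 on B6 replicates 3 and 4 and 12.05 and 12.75 on BTBR replicates 3 and 4. On the other arrays it read 7.78 to 9.61. Without BTBR replicate 1 the rule found 34 genes, of which 30 were among the 33 members, and without BTBR replicate 2 it found 36 with 31 of them. With both left out, a choice made after seeing the data, it found 36 genes with 30 of the members. The part of these cells and tissues in the probe differences was not tested, and in whole tissue fewer cells of a type and less RNA per cell cannot be told apart.

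Most mammalian genes make several RNAs from the same locus. Alternative start sites, splicing and alternative polyadenylation decide which exons and which 3′ end a transcript carries, and in brain many genes use extended 3′ ends or neuron-specific exons. A microarray probe is a short piece of DNA that binds whichever labeled RNA holds its complement, so that separate probes of a gene can read separate sets of its transcripts. The probes of this array are 60 bases long and were designed on reference transcripts. Some probes carry the gene's name but come from a cDNA clone or a predicted transcript that overlaps the gene.

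The sequences of 4 opposed pairs are shown because they show opposed probes on one transcript with an intron between them (Fcrls) and on separate transcripts (Slc15a2, Map3k6 and Mrpl3). For each probe 30 of its 60 bases are printed 5′ to 3′ as the array files give them, in lower case, starting at the first base except for the risen probe of Map3k6, of which bases 27 to 56 are shown. Capitals mark ATTAAA, a variant of the polyadenylation signal. Coordinates are those of the mouse build mm9 in the array files and cover the whole probe.
Fcrls risen, chr3:87055125-87055184, minus strand: gaggactcgaaactatattaatctgctctg
Fcrls fallen, chr3:87056422-87056481, minus strand: gaagctctgcctgtgctcattcaggtagcc
Slc15a2 risen, chr16:36750603-36750662, minus strand: ggtcagggaacgacgttgggaatattagga
Slc15a2 fallen, chr16:36772528-36772587, minus strand: gactagatacttctcggtcttctacctctc
Map3k6 risen, chr4:132808784-132808843, plus strand: caatcatagactATTAAAcagaacacttgc
Map3k6 fallen, chr4:132808672-132808731, plus strand: acagatacggatggatgaacagagaagaca
Mrpl3 risen, chr9:104979522-104979581, plus strand: agatcaggaatgggaatcgcattccctcgg
Mrpl3 fallen, chr9:104978228-104978287, plus strand: gagaagtcactacttgcatcctatgtgaca

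The 33 members had 92 probes, of which 86 met the detection criterion. Among these, 34 were up by 0.4 or more, 34 were down by 0.4 or more and 18 lay between. There were 19 members with 2 qualifying probes, 8 with 3 and 6 with 4. The largest rise of each member had a median of 0.68 and the largest fall a median of -0.62, and the distance between the opposed probes on the log2 scale ranged from 0.89 to 3.31 with a median of 1.27. The fall was larger than the rise in 17 of the 33. Averaged over all its qualifying probes, a member's difference had a median size of 0.11, and it was under 0.2 in 26 of the 33 members. The largest such mean was that of Slc15a2, at -0.89.

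**Figure D1:**
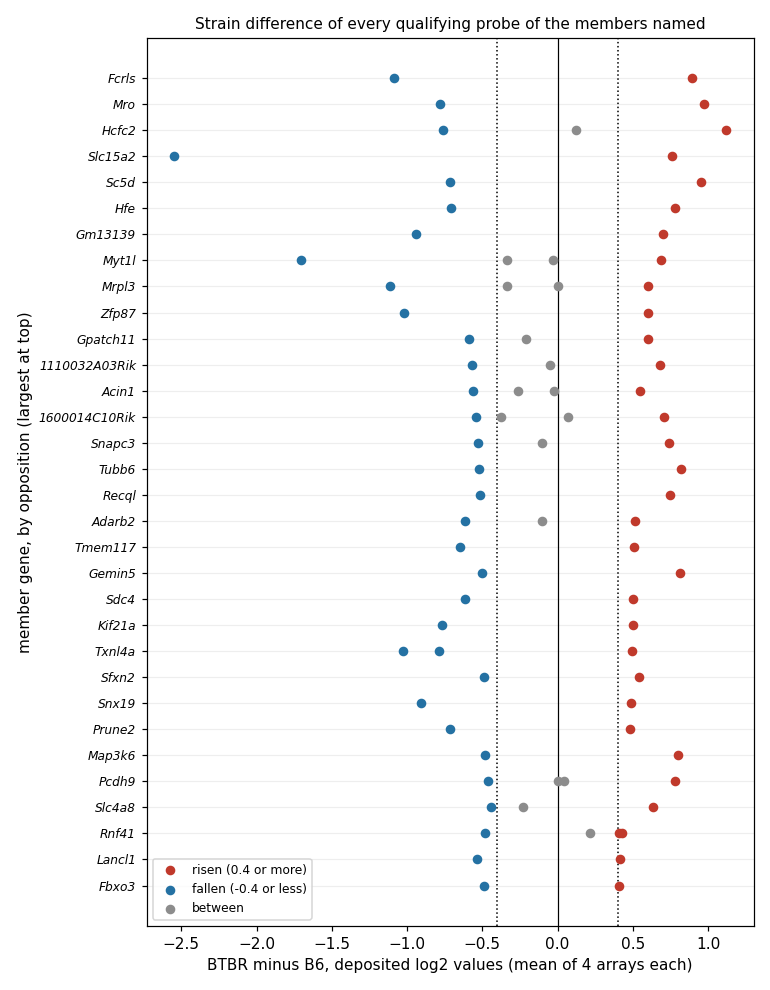
Strain difference (BTBR minus B6, deposited log2 values, mean of 4 arrays each, x axis) of every qualifying probe of the members named here, 1 row per gene, with the rule's thresholds of 0.4 and -0.4 as dotted lines. Red points are risen probes, blue points fallen probes and gray points the probes between; the lowest point is Slc15a2 at -2.55 and the highest Hcfc2 at 1.12.

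The arrays of both strains did not overlap for 63 of the 68 risen or fallen probes, against 14.9% of the 25213 qualifying probes of the array. For both opposed probes this held in 28 members. These counts come from the contrast that chose the members and are read no further. The median pooled SD within strains was 0.117 for the 68 probes and 0.116 for all qualifying probes, and their median log2 level was 10.6 against 10.3.

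Fcrls had the largest opposition, the smaller of its rise and its fall. It codes for a scavenger receptor related to Fc receptors and is known as a marker of microglia in the mouse. Its risen probe read 9.09, 8.95, 8.92 and 8.93 in B6 replicates 1 to 4 and 9.82, 9.68, 10.01 and 9.98 in BTBR replicates 1 to 4, a difference of 0.89 or 1.86-fold. Its fallen probe read 11.16, 11.13, 11.21 and 11.21 in B6 and 10.02, 9.95, 10.24 and 10.16 in BTBR, a difference of -1.09, which left 0.471 of the B6 level. In each probe the strains stood apart on every array. Both probes lie on the transcript NM_030707, the fallen one from base 1435 and the risen one from base 1693, that is 258 bases apart on the transcript and 1297 bases apart in the genome.

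Map3k6, a kinase at the top of stress-activated MAP kinase cascades, had the opposed probes that lay closest together, 112 bases from start to start. The risen probe was taken from the transcript AB021861 and read 9.77, 9.79, 9.62 and 9.44 in B6 and 10.61, 10.75, 10.39 and 10.08 in BTBR, a difference of 0.80. The fallen probe was taken from NM_016693 and read 10.91, 11.01, 10.80 and 10.24 in B6 and 10.63, 10.48, 10.10 and 9.85 in BTBR, a difference of -0.48. The risen probe separated the strains, whereas in the fallen probe their arrays overlapped, since B6 replicate 4 read lower than BTBR replicates 1 and 2. After removing the strain means the deviations of the 2 probes correlated over the 8 arrays (r = 0.90). The risen probe holds ATTAAA, and the fallen probe, which lies upstream, holds neither AATAAA nor ATTAAA. One of these motifs, searched in the probe sequence as given, was present in 3 of the 68 risen or fallen probes (4.41%) and in 7.49% of all probes on the array.

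Among the transporters, Slc15a2 showed the widest gap of all members. It codes for PEPT2, a proton-coupled carrier of small peptides. The probe from its RefSeq transcript NM_021301 read 10.61, 10.54, 10.42 and 10.38 in B6 and 11.16, 11.24, 11.28 and 11.30 in BTBR, a difference of 0.76. The probe from the clone transcript AK018393, 21925 bases further 5′, read 11.87, 11.96, 11.77 and 11.70 in B6 and 9.12, 9.29, 9.44 and 9.27 in BTBR, a difference of -2.55, which left 0.171 of the B6 level. Slc4a8, a sodium-driven bicarbonate exchanger of neurons, had a risen probe from base 4145 of NM_021530 at 0.63, with 9.40 to 9.55 in B6 and 9.71 to 10.47 in BTBR. Its fallen probe from base 3309 was at -0.44 and its arrays overlapped between strains, and a probe from base 11597 was at -0.23. Sfxn2, a mitochondrial carrier of the sideroflexin family, was at 0.54 from base 1221 of NM_053196 and was at -0.49 from base 2403 of the same transcript. Its B6 arrays read 9.59 to 9.85 against 10.16 to 10.28 in BTBR for the first probe, and 8.97 to 9.18 against 8.54 to 8.58 for the second, so that both probes separated the strains.

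**Figure D2:**
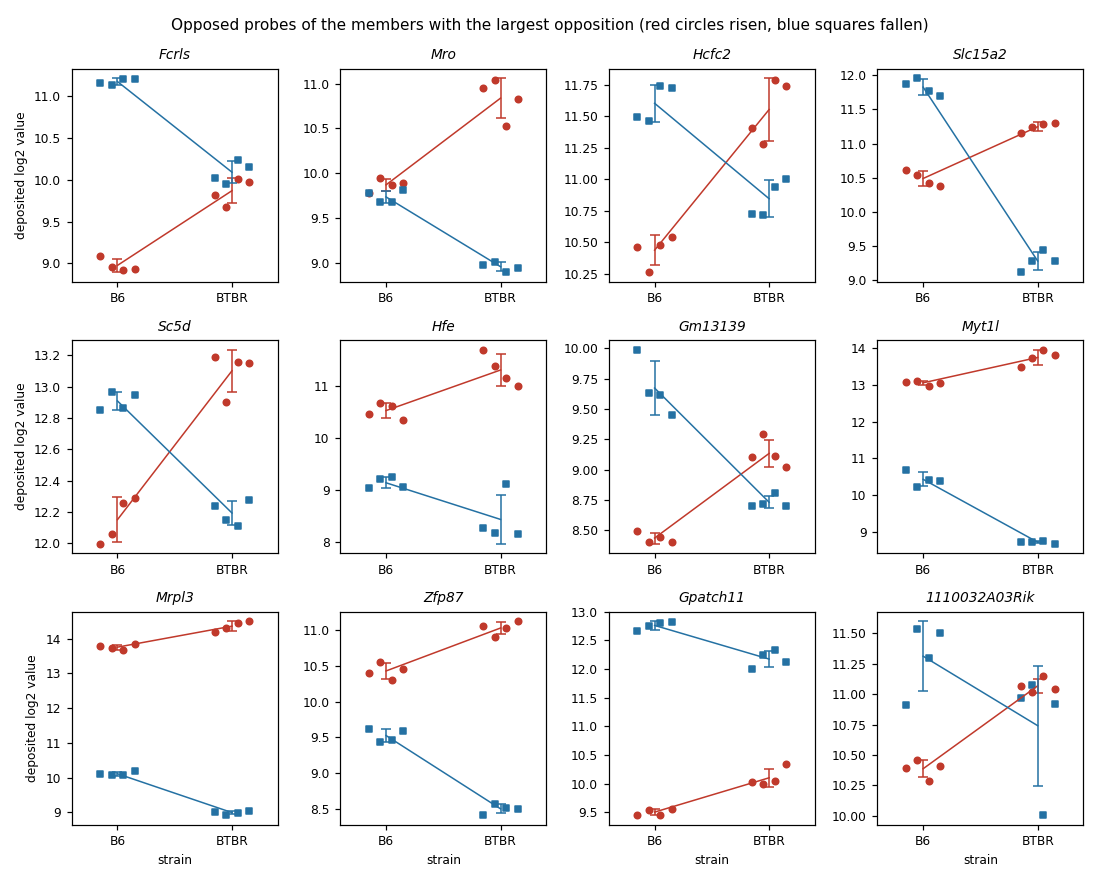
Deposited log2 values (y axis) of the opposed probes on each array of B6 and BTBR (x axis) for the 12 members with the largest opposition. Points are single arrays, lines join the strain means and bars are SD (n = 4); in Slc15a2 the fallen probe (blue squares) drops from 11.83 to 9.28 while the risen probe (red circles) climbs from 10.49 to 11.25, and in Hfe and 1110032A03Rik one BTBR array lies far from the other 3.

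Genes of E3 ubiquitin ligases, whose products mark proteins for degradation, were also among the members. Rnf41, which codes for the ligase Nrdp1, ran from 0.43 at base 1112 of NM_026259 over 0.41 and 0.22 for the probes at bases 1485 and 1566 of NM_001164237 to -0.48 at base 3260 of NM_026259, and on 1 BTBR array the last of these probes was not well above background. B6 read 9.70 to 9.87 and BTBR 10.19 to 10.24 in the first probe, and B6 read 8.83 to 8.98 and BTBR 8.38 to 8.45 in the last. Fbxo3, an F-box subunit of a ligase complex, had 0.41 and -0.49, with 10.90 to 11.04 in B6 and 11.08 to 11.61 in BTBR for the risen probe and 11.17 to 11.43 against 10.66 to 10.99 for the fallen one.

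Gemin5 codes for the subunit of the SMN complex that binds small nuclear RNAs. Its risen probe read 11.06, 11.04, 11.09 and 11.15 in B6 and 12.02, 11.74, 11.89 and 11.94 in BTBR, a difference of 0.81, and its fallen probe, 1082 bases downstream, read 10.85, 10.95, 10.90 and 10.96 in B6 and 10.31, 10.35, 10.49 and 10.49 in BTBR, a difference of -0.51. Both probes separated the strains. Acin1, a component of complexes on spliced RNA, had 4 probes, at -0.26, 0.55, -0.56 and -0.02 in 5′ to 3′ order, and the risen one came from the clone transcript AK042374. Its risen probe read 10.66 to 10.71 in B6 and 11.17 to 11.35 in BTBR, and its fallen probe 10.60 to 10.99 against 10.06 to 10.39. Snapc3, a subunit of the factor that starts transcription of small nuclear RNA genes, was at 0.74 at a probe of NM_029949, where B6 read 11.54 to 11.72 and BTBR 12.24 to 12.57, and was at -0.53 at a probe of the transcript ENSMUST00000123262, with 10.03 to 10.45 in B6 and 9.57 to 9.74 in BTBR. Txnl4a, a protein of the U5 small nuclear ribonucleoprotein, had a risen probe at 0.49 with a fallen probe on each side of it, at -0.79 upstream and -1.03 downstream. Adarb2, a brain member of the RNA editing deaminase family, had 0.52 and -0.62, and its risen probe overlapped between strains, with 10.73 to 11.57 in B6 and 10.99 to 11.96 in BTBR. Gpatch11, whose G-patch domain is found in many RNA-processing proteins, was at -0.21 from base 700, -0.59 from base 989 and 0.60 from base 3519 of NM_181649. The fallen probe read 12.66 to 12.83 in B6 and 12.01 to 12.33 in BTBR, and the risen one 9.46 to 9.55 against 9.99 to 10.33, so that both separated the strains.

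Transcription factors and zinc finger genes were also present. Myt1l, a zinc finger factor of neurons, had its fallen probe on the clone transcript AK012660, which read 10.69, 10.23, 10.42 and 10.38 in B6 and 8.74, 8.72, 8.75 and 8.69 in BTBR, a difference of -1.71 or 0.307 of the B6 level. Its risen probe on NM_008666, 135508 bases further 3′, read 13.08, 13.09, 12.97 and 13.05 in B6 and 13.49, 13.73, 13.95 and 13.79 in BTBR, a difference of 0.69. Between these values lay the probes from bases 5772 and 6697 of NM_001093775, at -0.33 and -0.03, and a further 2 probes of Myt1l did not meet the detection criterion. Hcfc2, a relative of the cell cycle cofactor host cell factor, was at 0.12 for a probe of its RefSeq transcript NM_001081218, at 1.12 for a probe of the clone transcript AK018461 and at -0.76 for a probe of ENSMUST00000020478, which lies 1198 bases downstream of the risen one. In the risen probe B6 read 10.26 to 10.54 and BTBR 11.28 to 11.79, and in the fallen probe B6 read 11.46 to 11.74 and BTBR 10.72 to 11.00.

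Gm13139 and Zfp87 are less certain as single genes. Gm13139 is listed as the zinc finger gene Zfp991 in RefSeq, and its risen probe at 0.70 carries RefSeq transcripts of Zfp991, Zfp992 and Znf41-ps, so that it cannot be assigned to one of these near copies. Its fallen probe at -0.94 carries a transcript of Zfp991 only. B6 read 8.40 to 8.50 and BTBR 9.03 to 9.29 in the risen probe, which was well above background on 3 of the B6 arrays, and B6 read 9.46 to 9.99 and BTBR 8.70 to 8.81 in the fallen one. The opposed probes of Zfp87, at 0.60 and -1.02, lie 347839 bases apart on opposite strands, and the coordinates of the risen one cover only 8 bases. B6 read 10.30 to 10.55 and BTBR 10.91 to 11.12 in its risen probe, and B6 read 9.44 to 9.61 and BTBR 8.42 to 8.57 in its fallen one. Tubb6, a beta-tubulin gene, was the other member with opposed probes on opposite strands, at 0.82 and -0.52.

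In genes of metabolism, Sc5d, a desaturase of cholesterol synthesis, had a risen probe on the clone transcript AK080673 that read 12.00, 12.06, 12.26 and 12.29 in B6 and 13.19, 12.90, 13.16 and 13.15 in BTBR, a difference of 0.95. Its fallen probe on NM_172769, 2770 bases further 5′, read 12.85, 12.97, 12.86 and 12.95 in B6 and 12.24, 12.15, 12.11 and 12.27 in BTBR, a difference of -0.71. Both probes separated the strains. Hfe, a regulator of iron uptake related to MHC class I proteins, was at 0.78 for a probe of NM_010424, where B6 read 10.35 to 10.68 and BTBR 11.01 to 11.70. Its fallen probe on AJ306425, at -0.71, read 9.04, 9.20, 9.25 and 9.05 in B6 and 8.27, 8.17, 9.12 and 8.15 in BTBR, and only 1 BTBR array was well above background. BTBR replicate 3 fell within the range of B6 there. Lancl1, a glutathione-binding protein of the LanC family, had 0.41 at base 3864 and -0.54 at base 607 of NM_021295. B6 read 11.75 to 11.88 and BTBR 12.06 to 12.31 in the risen probe, and B6 read 11.40 to 11.55 and BTBR 10.83 to 11.01 in the fallen one.

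Mrpl3, a protein of the large subunit of the mitochondrial ribosome, had differences of both signs within a short distance. In 5′ to 3′ order its 4 probes were at 0.00, -1.12, 0.60 and -0.34. The last 3 lie within 1473 bases of the genome from start to start, and the risen probe and the last probe are taken from bases 1246 and 1425 of the same transcript, NM_053159. The risen probe read 13.79, 13.72, 13.67 and 13.83 in B6 and 14.19, 14.29, 14.45 and 14.49 in BTBR. The probe after it read 13.65, 13.63, 13.55 and 13.61 in B6 and 13.12, 13.28, 13.36 and 13.33 in BTBR, and the fallen probe on the clone transcript AK054185 read 10.10, 10.07, 10.09 and 10.19 in B6 and 9.02, 8.93, 8.99 and 9.04 in BTBR. All 3 separated the strains, while in the first probe the arrays overlapped.

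Other members code for proteins of the cell surface, membrane traffic and movement along microtubules. Sdc4, a heparan sulfate proteoglycan of the syndecan family, read 9.39, 9.20, 9.30 and 9.48 in B6 and 9.70, 9.82, 9.97 and 9.88 in BTBR at base 936 of NM_011521, a difference of 0.50. At base 2031 it read 11.72, 11.69, 11.90 and 11.92 in B6 and 11.20, 11.14, 11.30 and 11.13 in BTBR, a difference of -0.62. The transcript and the genome give the same distance of 1095 bases between these probes, so that no intron lies between them. Snx19, a sorting nexin, read 10.90, 10.90, 10.87 and 10.76 in B6 and 9.92, 9.90, 10.04 and 9.93 in BTBR at its fallen probe, a difference of -0.91, and was at 0.48 at its risen probe, with 11.40 to 11.60 in B6 and 11.76 to 12.23 in BTBR. Kif21a, a kinesin motor, had 0.50 and -0.77. Pcdh9, a protocadherin, was at 0.78 at a probe of AY861425, where B6 read 13.18 to 13.61 and BTBR 13.91 to 14.29, and was at -0.46 at a probe of NM_001271799, where B6 read 11.31 to 11.54 and BTBR 10.86 to 11.12, while both probes of NM_001271798 were within 0.04 of 0.

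Of the remaining members, 1600014C10Rik had opposed probes 424 bases apart, at 0.71 from base 1810 and -0.54 from base 1995 of NM_028166, and further values of -0.38 from base 2824 and 0.07 for a probe without coordinates. B6 read 10.57 to 10.73 and BTBR 11.16 to 11.42 in the risen probe, and B6 read 10.12 to 10.23 and BTBR 9.52 to 9.71 in the fallen one. 1110032A03Rik had 0.68 and -0.57 at bases 270 and 463 of NM_023483, with 10.29 to 10.46 in B6 and 11.01 to 11.15 in BTBR for the risen probe. Its fallen probe overlapped between strains, at 10.91 to 11.53 in B6 and 10.01 to 11.07 in BTBR. Mro, the gene named maestro, had 0.97 and -0.78 with B6 arrays at 9.78 to 9.94 against BTBR arrays at 10.53 to 11.04 for the risen probe, and 9.67 to 9.81 against 8.89 to 9.01 for the fallen one. Recql, a DNA helicase, had 0.75 and -0.52. Tmem117 and Prune2 each had a fallen probe that was well above background on all 4 B6 arrays and on no BTBR array. That of Tmem117 was measured at 8.77 ± 0.23 in B6 and 8.12 ± 0.05 in BTBR (SD, n = 4), and against the dimmest detected probes it was at least 1.47-fold lower in BTBR. For Prune2 the measured means were 8.92 ± 0.06 and 8.20 ± 0.05, at least 1.58-fold lower. Their risen probes were at 0.51 and 0.48, and that of Tmem117 read 10.15 to 10.44 in B6 and 10.53 to 11.08 in BTBR.

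Just inside the thresholds lay Lancl1, with 0.41 as its smaller change, and Fbxo3, also with 0.41. Just outside lay Slc30a10, with 0.397 and -0.98, and Ubr1, with 0.50 and -0.39.

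The position of the probes was not used to select the genes. All 33 opposed pairs lay on one chromosome, on 17 chromosomes in all, with at most 4 members on one of them. In the 31 pairs on one strand the risen probe lay 3′ of the fallen probe in 17 (54.8%, 95% Wilson interval 37.8 to 70.8%) and 5′ of it in 14. When the highest and the lowest qualifying probe of every gene with 2 or more were paired in the same way, the higher probe lay 3′ in 44.0% of 6010 pairs, and over all 11740 ordered pairs of qualifying probes of a gene it did so in 45.2%. The interval treats the 31 pairs as independent, although all were read on the same arrays, and it is wide. It cannot decide whether the order in the members differs from that in all genes, so the shares are given as a description.

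**Figure D3:**
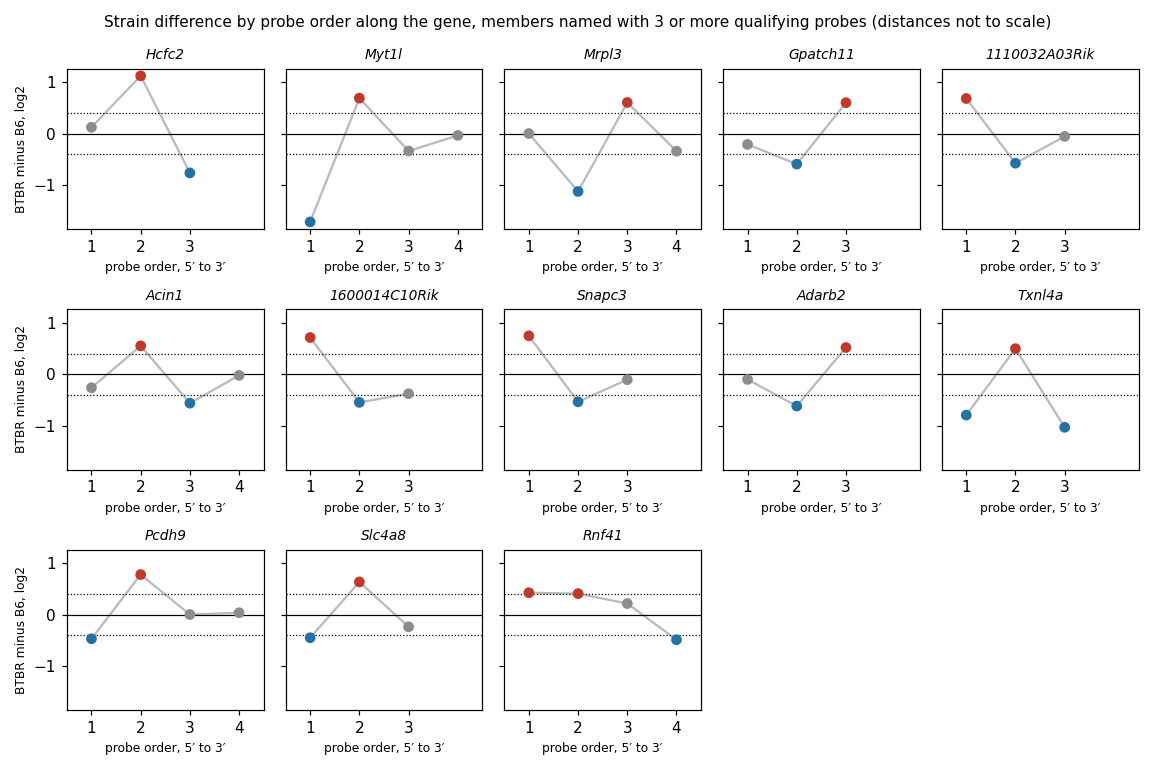
Strain difference (y axis, log2) of the qualifying probes in their order along the gene (x axis, 5′ to 3′, distances not to scale) for the members named here with 3 or more of them; the probe without coordinates is left out. Red, blue and gray mark risen, fallen and other probes, and among the genes drawn the difference moves steadily in one direction in Rnf41 only.

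Within the 14 members with 3 or 4 qualifying probes, the risen and the fallen probe were neighbors in 12. The difference ran in one direction along the gene in 2 of 14, of which Rnf41 is one. Over the 1712 genes of the array with 3 or 4 ordered qualifying probes, the highest and lowest were neighbors in 60.2% and the order was steady in 31.2%. These counts were added after the members had been seen and are given as a description.

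The median genomic distance between the opposed probes was 3124 bases, with 112 for Map3k6 as the smallest and 379003 for Tmem117 among the largest. It was 3240.5 bases for the highest and lowest probe of all genes with 2 or more. Under 2000 bases apart were 14 of the 33 pairs (42.4%) against 38.4%, and over 100000 bases apart were 4 (12.1%) against 3.94%. Tmem117, Zfp87 and Myt1l were among these 4.

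The opposed probes of 14 members (42.4%) were designed on the same transcript, against 68.0% of the pairs of all genes. Counting every transcript that the array files list for a probe, 16 pairs (48.5%) shared at least 1, against 73.4%. Both probes came from RefSeq transcripts in 18 members (54.5%), against 73.6%. The risen probe came from RefSeq and the fallen one from a clone or predicted transcript in 9 (27.3%), against 14.3% for the higher and lower probe of all genes, the reverse was found in 5 (15.2%) against 9.42%, and neither was from RefSeq in 1 (3.03%) against 2.68%. In 5 of the 14 pairs on one transcript the distance was the same on the transcript and in the genome within 2 bases, which leaves no intron between the probes, against 46.4% of 4120 such pairs. These were Sdc4, Txnl4a, Sfxn2, Snx19 and Prune2.

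**Figure D4:**
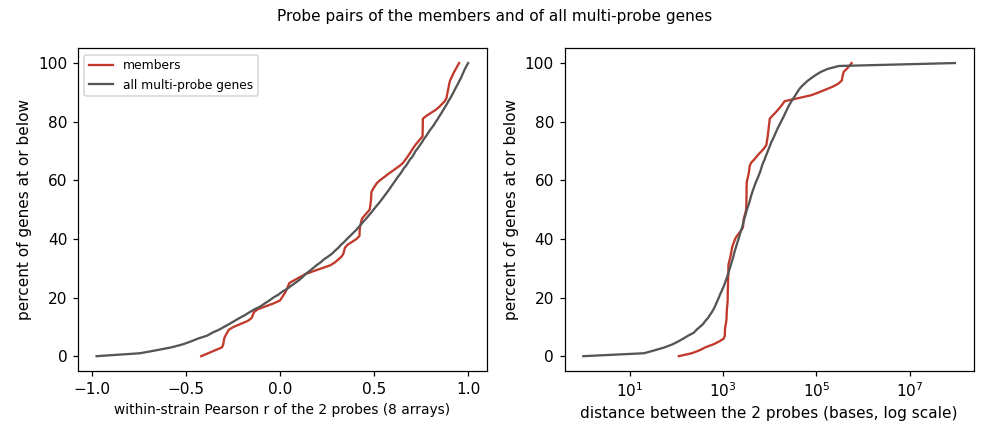
Cumulative share of genes (y axis, percent) by the within-strain correlation of the opposed probes (left) and by the genomic distance between them (right, log scale), for the 33 members (red) and for the highest and lowest probe of all 6072 genes with 2 or more qualifying probes (gray). The medians of the correlation are 0.48 and 0.50, and its 2 curves run close together between the quartiles. The curves of the distance part at both ends. Their 10th percentiles are 1112 and 317 bases and their 90th percentiles 112791 and 38844 bases, members first.

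Subtracting the strain means left the deviation of each mouse from its own strain, which did not enter the rule. Over the 8 arrays the Pearson correlation of these deviations between the opposed probes had a median of 0.48 over the members, with quartiles of 0.05 and 0.76, and it was below 0 in 7 of 33. For the highest and lowest probe of all genes with 2 or more, the median was 0.50 and 21.4% were below 0. With the genes that the rule found in the processed signal the median was 0.29. The highest values were 0.95 for Adarb2, 0.92 for Sfxn2 and 0.90 for Map3k6, and the lowest were -0.42 for 1110032A03Rik and -0.30 for Zfp87 and Tubb6. The 2 probes of a pair share each array with its depth and normalization, so that these correlations are given without p.

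The probe sequences of the members had a median GC content of 43.3% for risen probes, 40.0% for fallen probes and 43.3% for all qualifying probes. Of the 68 risen or fallen probes 10 (14.7%) shared a stretch of 16 bases with a probe of another gene name, on either strand, against 9.55% of all qualifying probes. Coordinates spanned more than the probe length, as for a probe across an intron, in 8 of the 68 (11.8%), against 12.7%. For 31 of the 33 members the RefSeq gene list holds the same symbol, and for the other two a newer name.

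The mean over both slides chose the members, so their values on each slide are a description. The least even were the risen probe of Adarb2, at 0.13 and 0.90, and the fallen probe of 1110032A03Rik, at -0.20 and -0.94. The slides held separate mice, so that genes chosen on one slide can be read on the other. With the rule applied to slide 1 alone 49 genes were found, and both of their probes went in the same directions on slide 2 in 42 of them, past 0.4 in both in 24, with medians of 0.54 and -0.55. From slide 2 alone 34 genes were found, of which 32 kept both directions on slide 1 and 24 passed 0.4 in both. Of all probes past the threshold on slide 1, 72.5% kept their sign on slide 2, and 83.5% did so from slide 2 to slide 1. These shares count single probes, whereas the gene counts need both probes to keep their direction, so they are unlike measures. Slide 1 held BTBR replicates 1 and 2, which stood apart in the mean of the hippocampal neuron markers.

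**Figure D5:**
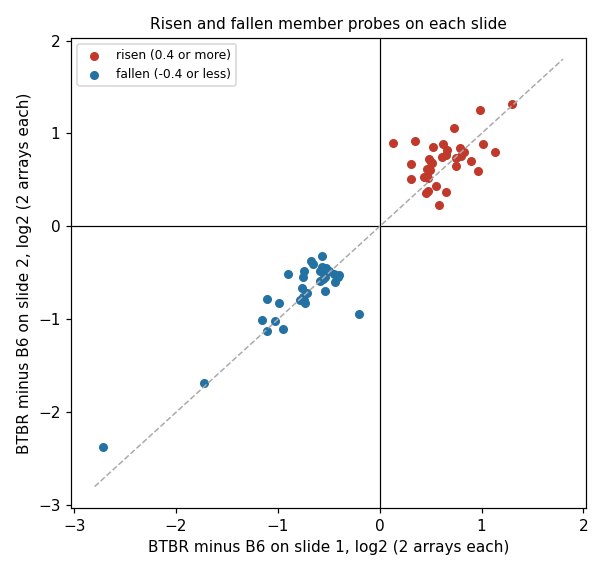
BTBR minus B6 difference (log2) of the 68 risen (red) and fallen (blue) probes on slide 1 (x axis) and slide 2 (y axis), 2 arrays of each strain per slide, with the line of equal values dashed. The rule used the mean of both axes, so the side on which a point lies follows largely from the choice of the probes; the risen probe of Adarb2, at 0.13 and 0.90, lies far from the line.

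To set the members beside the machinery of splicing and 3′ end formation, 3 lists of genes were examined. Of 61 tested splicing regulators, 4 were up and 3 down by limma, and 6.67% of their probes were called against 7.63% of all probes. Mbnl1, a regulator of exon use in brain and muscle, was up in 1 of its 3 probes, by 0.87 (SE 0.09, adjusted p = 0.00036, limma). Srsf4, a serine- and arginine-rich splicing factor, was up in both probes, with 11.31 ± 0.04 in B6 and 11.80 ± 0.07 in BTBR (SD, n = 4) for the first (limma, adjusted p = 0.0010). Tia1, an RNA-binding protein that acts in splicing and stress granules, was down in 1 of 4 probes, by -0.98 (SE 0.13, adjusted p = 0.0013, limma), while its other probes ranged up to -0.004.

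Of the 29 cleavage and polyadenylation factors, 2 were up and 3 down, with 11.5% of their probes called. Pcf11, a cleavage factor subunit that also acts in transcription termination, was down in 1 of 3 probes, which was well above background on all 4 B6 arrays and on no BTBR array. The measured means were 8.76 ± 0.09 in B6 and 7.68 ± 0.05 in BTBR (SD, n = 4; limma, adjusted p = 1.2e-05), and against the dimmest detected probes it was at least 2.02-fold lower in BTBR. Sympk, the scaffold of the cleavage complex, was down from 13.63 ± 0.12 to 12.50 ± 0.11 in its single probe (limma, adjusted p = 3.7e-05). Pabpn1, a nuclear poly(A) binding protein, was up by 0.64 in 1 of 4 probes (SE 0.09, adjusted p = 0.0028, limma), and its lowest probe was at -0.15.

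Of 59 genes known for alternative transcripts in brain, 1 was up and 3 down, with 2.55% of their probes called, and 7 genes in place of 4 were called without BTBR replicate 4. Of these genes 44 had 2 or more qualifying probes and 0 were members, where the share over all such genes was 0.543%. Shank3, a postsynaptic scaffold, was up by 0.65 in its single probe, and Tpm1, a tropomyosin, was down by -0.54 in 1 of 4 probes (limma, adjusted p = 0.0012 and 0.0069). The splicing regulators and the polyadenylation factors, of which 43 and 19 had 2 or more qualifying probes, held no member either. In lists of this size a count of 0 is near that background and is no result about the lists. The lists were written from general knowledge and leave out members of RNA processing such as Txnl4a, Acin1 and Gemin5.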

How the data were processed

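Hippocampal RNA of 8 mice, 1 per array, was measured on Agilent arrays with 45018 spots. The intensity values (mean signal, local background, processed signal and flags of each spot) are as deposited by the authors from Agilent's Feature Extraction software, of which the file headers give version 10.7.3.1 and the submitters' processing notes version 9.1. The deposited log2 values were background subtracted and quantile normalized by the authors in Agi4x44PreProcess at its defaults, taking the median of replicate spots; the signal column and offset are not given in the sources used here. These log2 values rank as signal minus background on each array, and member values are given on their scale. Feature Extraction's call of well above background, on 57.4% to 72.3% of the probes per array, stands in for depth. The number of arrays limits the precision.

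The rule was applied to 41174 probes, of which 25213 qualified. Limma 3.58.1 in R 4.3.3 was fitted to log2 of mean signal minus local background (at least 0.5, plus 50), quantile normalized, over 27854 probes well above background on 75% of the arrays of a strain and without an outlier flag (334 probes had one). Called means a Benjamini-Hochberg adjusted p under 0.05. On simulated data the fit and the search for members were tested and recovered what was planted. Python 3.11.15 with pandas 2.3.3, SciPy 1.17.1 and NumPy 2.4.6 did the rest. Over 99.0% of probe pairs on one transcript had the larger start position 3′ in the genome, so positions were read from the 5′ end. Gene names and newer symbols are from the array files and the RefSeq list of GRCm38.p6, and coordinates are mm9. The bound for a probe not well above background in a strain used, on each array, the higher of its own value and the lowest value detected there.

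The members, lists and tests were chosen with earlier results of these data known. Named with their values, within what is reported here, were the 15 members with the largest opposition, the 5 closest and 3 farthest pairs, the members with the most qualifying probes (6, with ties), the 2 genes on each side of the threshold, Map3k6 as named by the study, and up to 3 called genes per list; for the other members the naming followed a look at their values. The arrays are from separate mice, and p-values measure the spread between them. Alternatives were other values, thresholds, detection criteria, blocks and arrays left out, and BTBR replicates 1 and 2 left out together, added after seeing the data. Some genes and sequences are not reported here. Genome sequence, and the BTBR sequence under the probes, were not analysed here. The rank product of the study, its qRT-PCR and its other mouse line were not used here.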

Additional observations from a re-analysis of the deposited data

Results flagged for a closer look

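In the 68 risen or fallen probes of the members, each strain's 4 arrays were searched for an array far from the other 3. This gave 10 of 136 groups (7.35%), where chance gives about 1 in 20. In BTBR, replicate 2 was low in the risen probes of Sc5d (12.90, others 13.15 to 13.19) and 1600014C10Rik (11.16, others 11.39 to 11.42) and in the fallen probe of Adarb2 (8.83, others 9.15 to 9.22). BTBR replicate 3 was high in the fallen probe of Hfe (9.12, others 8.15 to 8.27) and of Snapc3 (9.74, others 9.57 to 9.59), and low in the fallen probe of 1110032A03Rik (10.01, others 10.92 to 11.07). BTBR replicate 4 was high in the risen probe of Gpatch11 (10.33, others 9.99 to 10.04). In B6, replicate 1 was high in the fallen probes of Snapc3 (10.45, others 10.03 to 10.09) and Tmem117 (9.11, others 8.63 to 8.70), and replicate 4 was high in the fallen probe of Lancl1 (11.55, others 11.40 to 11.42). The cause of these values was not tested.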

How the results depend on the processing

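The rule found 33 genes in the deposited matrix, 45 from signal minus background with an offset of 50, 40 with normexp and 94 with the processed signal scaled to its 75th percentile, and all 33 members were among those found under each of these 3 processings. It found 65 genes at a threshold of 0.3, 9 at 0.6 and 0 at 1, as the thresholds' construction requires, and 28 when both probes had to be well above background on all 8 arrays. Leaving out each array in turn gave 33 to 40 genes, and 25 of the 33 members were found in all 8 rounds; the exceptions were 1110032A03Rik, Adarb2, Prune2, Map3k6, Slc4a8, Rnf41, Lancl1 and Fbxo3. On each slide alone, 24 members were found both times. With BTBR replicates 1 and 2 both left out, chosen after seeing the data, it found 36 genes and 30 of the members. None of the 924 recomputed differences of the members' opposed probes changed sign, and 104 moved by more than the SD within strains, 39 of them with the processed signal. The recomputed differences reuse the arrays that chose the probes, so that their signs follow largely from the choice. The share of pairs with the risen probe 3′ ranged from 44.2% to 57.7%, the median distance from 2653 to 3947 bases and the median correlation within strains from 0.29 to 0.55 over the alternatives that found a member.

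Limma called 2125 probes, and 1483 to 2172 with an array left out. With the replicate number as a block it called 1650. Same-numbered arrays deviated together in 2 of the 4 pairs (r = -0.16, 0.47, -0.12 and 0.40). This does not settle whether the numbers pair the mice, and the main fit did not pair them. Under the block the counts of the splicing, polyadenylation and alternative transcript lists moved by no more than 1.5 times. The marker lists were not counted under it. The called genes with known alternative transcripts numbered 4, and 3 to 7 with an array left out, with 7 without BTBR replicate 4. The cause was not tested. A fit with an interaction of strain and slide called 0 of the 27854 probes (limma, 2762 at an unadjusted p under 0.05) and, with 2 arrays of a strain on each slide, says nothing about how even the members' differences are. The arrays held 57.4% to 72.3% of probes well above background, which limits what can be read for dim probes such as the fallen probes of Tmem117 and Prune2.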
